A study of Sus scrofa with 6 samples.

Results

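The fibrillar collagens are the chains that build the banded fibrils of connective tissue, and 10 of their genes were taken by pig Ensembl symbol from the 30476 genes counted in skeletal muscle. The samples were of longissimus dorsi, the long back muscle, from pigs aged 6 months. In UCP1 KI pigs the gene of uncoupling protein 1 had been inserted for expression in adipocytes, and WT pigs carried no such insertion. Each group held 3 pigs with 1 library each, and the promoter, the sex and the relation of the pigs are not given in the sources used here. The inserted gene was directed to fat cells and not to muscle, and no identifier is listed under the symbol *UCP1*, so the genotype was not checked against counts. All 10 collagen genes had an identifier, and 9 of them passed the filter on low counts and were tested among 13402 genes. Positions are those of RefSeq genes on the build Sscrofa11.1, the build that the submitters' processing notes name.

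Fibrillar collagen chains are made as procollagens, wind into trimers in the endoplasmic reticulum, are secreted, lose their terminal propeptides and then pack side by side into fibrils. Types I and III form the bulk of the fibrils in the sheaths around muscle fibres and bundles, type V is buried inside them and starts their assembly, and types II and XI are the fibrillar collagens of cartilage. Types XXIV and XXVII are minor members with an interrupted helix that are best known from developing skeleton. In skeletal muscle these chains come mainly from fibroblasts of the connective tissue, which are a small part of the tissue beside the muscle fibres.

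Raw counts on genes summed to between 30220951 and 35066624 per pig, and levels are given as counts per 1000000 (CPM) of library totals scaled by edgeR's TMM method. A count of 3, the limit that a count of 0 allows, stood for between 0.0795 and 0.110 CPM, which covers counting error only. WT replicate 2 stood apart from the other libraries, since its 20 most abundant genes held 56.5% of the counts against 39.0% to 44.8% elsewhere, and its TMM factor of 0.781 was the lowest. The calls of the collagen genes and the levels of the cell type markers are therefore given with and without this pig. The share of counts on the 20 most abundant genes also had no overlap between the groups. It was 44.0, 39.3 and 39.0% in UCP1 KI replicates 1 to 3 and 44.5, 56.5 and 44.8% in WT replicates 1 to 3. The group separation was narrow and remained with WT replicate 2 left out. Muscle fibre genes were abundant in every pig, with *ACTA1*, skeletal muscle actin, between 30309 and 55971 CPM. A gene was called where edgeR's quasi-likelihood test gave an unadjusted p under 0.05 and the absolute log2 fold change, UCP1 KI against WT, was above 0.5, the limits in the methods of the study.

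Of the 9 fibrillar collagen genes tested, 6 were lower in UCP1 KI pigs past both limits (*COL1A1*, *COL1A2*, *COL3A1*, *COL5A1*, *COL5A3* and *COL27A1*) and 0 were higher. Among all 13402 genes tested, 4.34% were called lower, 3.84% higher and 8.19% in either direction, and 8.21% had an unadjusted p under 0.05. The same 6 genes were lower with no overlap between the groups, where 7.69% of all genes were (15.3% in either direction). The 3 genes that were not called were *COL5A2*, *COL11A1* and *COL24A1*. Summed over the family, the fibrillar collagens took 0.0358, 0.0195 and 0.0412% of all raw counts in UCP1 KI replicates 1 to 3 and 0.0812, 0.0851 and 0.0632% in WT replicates 1 to 3. The mean share was thus 2.38 times as large in WT pigs, a ratio that scales each library by its total alone. With TMM factors the ratio of the summed CPM was 2.83. In TMM-scaled CPM the summed family was at 299 ± 116 (SD, n = 3) for UCP1 KI and 847 ± 213 (SD, n = 3) for WT. UCP1 KI replicate 2 was the lowest of the 6 pigs for 8 of the 9 genes tested, and WT replicate 2 was the highest for 4 of them.

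**Figure D1:**
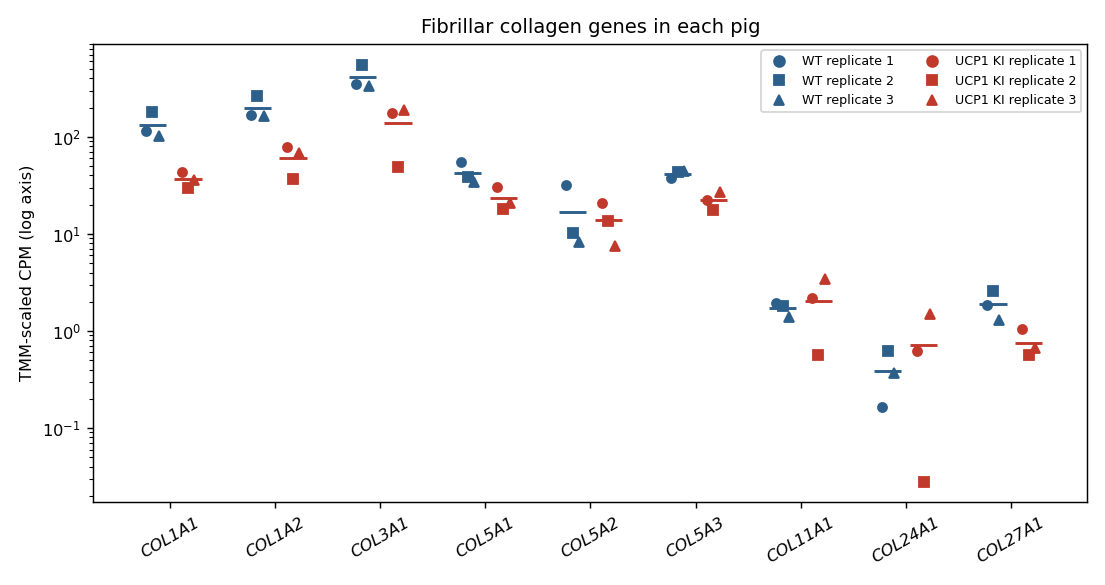
TMM-scaled CPM on a log axis for the 9 fibrillar collagen genes tested, with 1 point for each pig (blue, WT; red, UCP1 KI; the symbol gives the replicate) and a line at the mean of each group. All red points lie under all blue points for *COL1A1*, *COL1A2*, *COL3A1*, *COL5A1*, *COL5A3* and *COL27A1*, and the groups overlap for *COL5A2*, *COL11A1* and *COL24A1*.

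Type I collagen, the main tensile fibril of muscle sheaths, is built from the chains of *COL1A1* and *COL1A2*, and both genes were lower in UCP1 KI pigs. *COL1A1* (ENSSSCG00000036135, chromosome 12, 26379087 to 26397180) was at 44.0, 29.4 and 35.8 CPM in UCP1 KI replicates 1 to 3 and at 115, 179.6 and 101 CPM in WT replicates 1 to 3. The highest UCP1 KI pig was well under the lowest WT pig. The group mean was 36.4 ± 7.27 (SD, n = 3) CPM with the insertion and 132 ± 42.0 (SD, n = 3) CPM without it. The log2 fold change of -1.86 (standard error 0.31), or 3.62-fold lower, came with an unadjusted p of 0.000361 and an adjusted p of 0.280 from edgeR, and 0.970% of all genes tested had a lower fold change. By its p, *COL1A1* stood at place 16 among the 13402 genes tested. *COL1A2* (ENSSSCG00000015326, chromosome 9, 74174484 to 74210407) was at 79.1, 36.6 and 67.7 CPM in UCP1 KI pigs and at 169.6, 261 and 164 CPM in WT pigs, in the same order of replicates. UCP1 KI replicate 2 was the low pig and WT replicate 2 the high one for both chains. For *COL1A2* the log2 fold change came to -1.70 (standard error 0.36), 3.24-fold lower, with an unadjusted p of 0.00169 and an adjusted p of 0.460 from edgeR. Both genes stayed past the limits with each pig left out in turn, with log2 fold changes from -2.01 to -1.57 for *COL1A1* and from -1.92 to -1.44 for *COL1A2*. DESeq2 on the same genes gave them adjusted p values of 4.44e-05 and 0.00406, the only fibrillar collagens under 0.05 in that test, in which 0.948% of all genes were.

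*COL3A1* (ENSSSCG00000016034, chromosome 15, 93556914 to 93595678) encodes the only chain of type III collagen, the thinner fibril that accompanies type I in compliant tissue, and it received more counts than any other member in every pig. It was at 178, 49.3 and 188 CPM in UCP1 KI replicates 1 to 3 and at 349, 552 and 334 CPM in WT replicates 1 to 3. All UCP1 KI pigs were below all WT pigs, but UCP1 KI replicate 2 was far below the other UCP1 KI pigs, and the highest UCP1 KI value was 3.81 times the lowest against 1.65 times among WT pigs. The UCP1 KI mean of 138 ± 77.3 (SD, n = 3) CPM and the WT mean of 412 ± 122 (SD, n = 3) CPM gave a log2 fold change of -1.57 (standard error 0.51). Its unadjusted p was 0.0158 and its adjusted p 0.583 in edgeR's test. Without WT replicate 2 the value became -1.31 at an unadjusted p of 0.0515 from edgeR, just outside the limit, and without UCP1 KI replicate 2 it was -1.18 and still called.

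Type V collagen nucleates the fibrils of type I, and its chains come from *COL5A1*, *COL5A2* and *COL5A3*, of which the first and the last were lower in UCP1 KI pigs and *COL5A2* was not called. *COL5A1* (ENSSSCG00000005751, chromosome 1, 273934219 to 274083264), the chain found in nearly all type V trimers, was at 30.7, 18.3 and 21.1 CPM in UCP1 KI replicates 1 to 3 and at 55.1, 38.5 and 34.6 CPM in WT replicates 1 to 3. The groups were separate but near each other, UCP1 KI replicate 1 being close under WT replicate 3. *COL5A3* (ENSSSCG00000013667, chromosome 2, 68828197 to 68869914), a chain of more restricted distribution, was at 22.5, 17.4 and 27.0 CPM in UCP1 KI pigs and at 37.9, 43.1 and 44.0 CPM in WT pigs, with little spread among the WT pigs. Their log2 fold changes were -0.87 (standard error 0.30) and -0.90 (standard error 0.24), and edgeR gave unadjusted p values of 0.0190 and 0.00598 with an adjusted p of 0.583 for both. *COL5A3* stayed past the limits with each pig left out, from -1.06 to -0.76. *COL5A1* did not without UCP1 KI replicate 2 (-0.73), UCP1 KI replicate 3 (-0.80) or WT replicate 1 (-0.65).

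*COL5A2* (ENSSSCG00000016035, chromosome 15, 93611856 to 93981131), whose RefSeq gene starts a short way after the end of *COL3A1* on the same chromosome, was not called. It was at 20.6, 13.5 and 7.58 CPM in UCP1 KI replicates 1 to 3 and at 31.6, 10.2 and 8.18 CPM in WT replicates 1 to 3, so that WT replicate 1 alone was above all other pigs and WT replicates 2 and 3 lay inside the range of the UCP1 KI pigs. The difference on the log2 scale was -0.26 (standard error 0.58, adjusted p = 0.910 from edgeR), and it was 0.59 without WT replicate 1 and 0.03 without UCP1 KI replicate 3. The span of *COL5A2* in RefSeq also overlaps a lncRNA, a pseudogene and the protein-coding gene *WDR75*. The microRNA genes *MIR9801* and *MIR455* overlap *COL5A3* and *COL27A1*, and a lncRNA overlaps *COL2A1*. Whether the counting used strand is not given in the sources used here, so reads of such overlapping genes could not be told apart.

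The minor members were measured at a low level, and *COL27A1* (ENSSSCG00000005487, chromosome 1, 254768576 to 254924893), a cartilage-associated chain, was the only one of them that was called. Its counts were 32, 20 and 25 in UCP1 KI replicates 1 to 3 and 67, 71 and 39 in WT replicates 1 to 3, or 1.03, 0.561 and 0.662 CPM against 1.85, 2.59 and 1.301 CPM. The groups did not overlap, and the log2 fold change of -1.34 (standard error 0.46) reached an unadjusted p of 0.0205 and an adjusted p of 0.583 from edgeR. It fell outside the p limit without UCP1 KI replicate 2 (-1.18), UCP1 KI replicate 3 (-1.26) or WT replicate 2 (-1.07). *COL11A1* (ENSSSCG00000006857, chromosome 4, 115638381 to 115841679), the chain of type XI that can also join type V trimers, was counted 68, 20 and 129 times in the UCP1 KI group and 71, 50 and 42 times in the WT group. The UCP1 KI pigs spanned the WT pigs on both sides, with 2.20, 0.561 and 3.42 CPM against 1.96, 1.83 and 1.40 CPM. The highest UCP1 KI value of *COL11A1* was 6.09 times the lowest, and among WT pigs it was 1.40 times. RefSeq places 2 lncRNAs and a pseudogene in its span.

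*COL24A1* (ENSSSCG00000031738, chromosome 4, 129911760 to 130243177), known from developing bone, was counted 19, 1 and 56 times in UCP1 KI replicates 1 to 3 and 6, 17 and 11 times in WT replicates 1 to 3. UCP1 KI replicate 3 was the highest and UCP1 KI replicate 2, at 1 count, the lowest of all pigs, which was also the order of the UCP1 KI pigs for *COL11A1*. Neither gene passed the limits, with log2 fold changes of 0.25 (standard error 0.61, adjusted p = 0.923) and 0.89 (standard error 1.08, adjusted p = 0.837) from edgeR. Both changed sign without UCP1 KI replicate 3, to -0.32 and -0.25, and the sign of *COL11A1* also depended on the replicate block. *COL2A1* (ENSSSCG00000025523, chromosome 5, 78350131 to 78380893), the chain of the main cartilage collagen, was counted 2, 1 and 0 times in the UCP1 KI group and 2, 0 and 0 times in the WT group. Every pig was under the limit of 3 counts and the gene did not pass edgeR's filter. In the fit with no filter its log2 fold change was 0.54 (edgeR, unadjusted p = 0.783), which at these counts depends on the prior count, and no difference could be detected at this depth. Of 7 chondrocyte markers, *MATN1*, *MATN3* and *HAPLN1* were at 0 counts in every pig. *SOX9*, which other cells express too, had 104, 158 and 223 counts in UCP1 KI replicates 1 to 3 and 201, 137 and 286 in WT replicates 1 to 3. *COMP*, also a tendon gene, had 56, 0 and 0 against 188, 6 and 0 counts, *ACAN* 2, 0 and 2 against 0, 14 and 0 and *CNMD* 0, 6 and 0 against 2, 4 and 9.

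The median log2 fold change over the 9 members tested was -0.90, beside -0.02 over all genes tested, and 7 of the 9 were below 0 against 51.3% of all genes. After Benjamini-Hochberg adjustment of edgeR's p values, 0 of the 13402 genes were under 0.05 (1100 had an unadjusted p under 0.05), and 127 were in DESeq2 on the same genes. For each of the 6 genes without overlap the two-sided exact permutation test on log2(CPM + 1) gave p = 0.1, which is as low as groups of 3 can go. Any gene without overlap gets this value, so it only restates the separation. With library size only, in place of TMM factors, 3 of the 6 calls remained, those of *COL1A1*, *COL1A2* and *COL3A1*, and *COL5A1*, *COL5A3* and *COL27A1* had log2 fold changes of -0.68, -0.64 and -1.10. That scaling moved the median of all genes to 0.24, and among all genes it changed the calls from 582 lower and 515 higher to 195 lower and 929 higher. Relative to the median of all genes, *COL1A1* was at -1.84 under TMM and -1.83 under library size only, *COL3A1* at -1.56 and -1.55, and *COL5A3* at -0.89 and -0.88. With median-of-ratios factors, no filter, at least 10 counts in every pig, DESeq2 and the replicate block, 6 members were called lower in each case, where 4.48%, 3.51%, 4.68%, 5.36% and 4.25% of all genes were. With library size only, 3 were, where 1.46% of all genes were. Without UCP1 KI replicates 1, 2 and 3 in turn, 6, 4 and 4 members were called lower beside 3.35%, 2.82% and 4.43% of all genes. Without WT replicates 1, 2 and 3 in turn, 5, 4 and 6 were called lower beside 3.69%, 2.79% and 5.71%. In bulk muscle, fewer cells that make collagen and less collagen RNA per cell cannot be told apart.

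**Figure D2:**
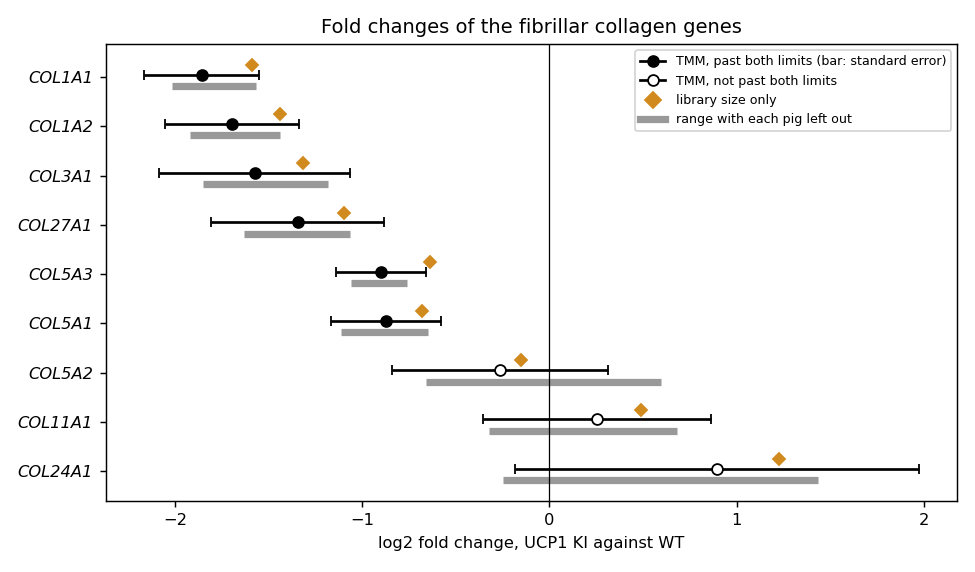
Log2 fold change, UCP1 KI against WT, of the 9 fibrillar collagen genes tested (circles, TMM scaling with bars of 1 standard error, filled where past both limits; diamonds, library size only; grey bars, range with each pig left out). The 6 filled circles lie between -1.86 and -0.87 with grey bars that stay below 0, while the grey bars of *COL5A2*, *COL11A1* and *COL24A1* cross 0.

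The make-up of the family was compared within each pig, where library scaling plays no part. Counts were not divided by transcript length, so shares and ratios are compared between pigs and not between genes. *COL1A1*, *COL1A2* and *COL3A1* together held 79.5, 69.6 and 82.6% of the fibrillar collagen counts in UCP1 KI replicates 1 to 3 and 83.1, 91.1 and 86.9% in WT replicates 1 to 3. Every UCP1 KI pig had a lower share than every WT pig, although UCP1 KI replicate 3 was only slightly under WT replicate 1. The share of *COL5A3* was 5.95, 10.5 and 7.66% against 4.97, 3.96 and 6.40%, and that of *COL5A1* 8.10, 11.0 and 5.97% against 7.22, 3.53 and 5.03%. Both type V shares had higher means in UCP1 KI pigs and overlapped with the WT pigs. *COL11A1* made up 0.581, 0.339 and 0.969% against 0.257, 0.168 and 0.204% and did not overlap, its share being higher in each UCP1 KI pig although its CPM was not. The family total was itself lower in every UCP1 KI pig, so a gene with no change would also take a higher share. The share of *COL1A2* did not overlap either and was lower, at 20.9, 22.1 and 19.2% against 22.2, 23.9 and 23.8%. In UCP1 KI replicate 2, *COL3A1* held 29.7% of the counts, and in the other 5 pigs between 45.8% and 53.3%.

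**Figure D3:**
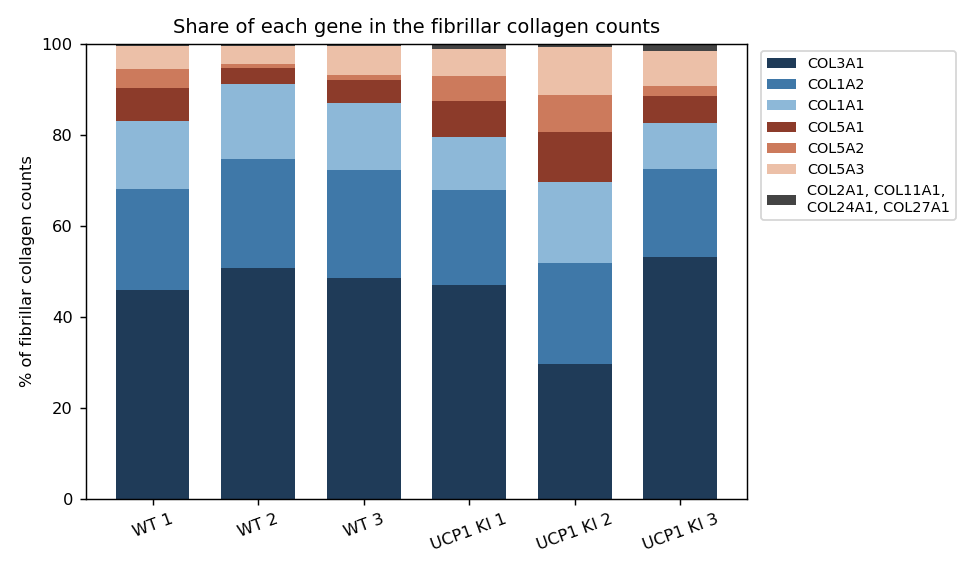
Share of each gene in the raw counts on the fibrillar collagens, in percent, as 1 stacked bar for each pig from WT replicate 1 to UCP1 KI replicate 3. The blue segments (types I and III) reach 83.1% to 91.1% in WT pigs and 69.6% to 82.6% in UCP1 KI pigs, and the bar of UCP1 KI replicate 2 has the smallest *COL3A1* segment.

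Among 6 ratios between members, that of *COL5A1* to *COL1A1* was the only one without overlap between the groups. It was 0.698, 0.620 and 0.588 in UCP1 KI replicates 1 to 3 and 0.479, 0.214 and 0.343 in WT replicates 1 to 3. The mean log2 ratio was -0.66 ± 0.13 (SD, n = 3) for UCP1 KI and -1.61 ± 0.58 (SD, n = 3) for WT, a difference of 0.95 (two-sided exact permutation test, p = 0.1, and 0.4 adjusted over the 6 ratios). *COL1A1* itself was lower without overlap, so a gene that changed less tends to separate when set against it. Against *COL1A1*, *COL1A2* and *COL3A1* together, 73.4% of 12937 tested genes outside the family separated in this direction. The ratio of *COL5A2* to *COL1A1* was 0.469, 0.457 and 0.212 in the UCP1 KI group and 0.274, 0.0569 and 0.0810 in the WT group, where WT replicate 1 lay inside the range of the UCP1 KI pigs. Its log2 difference was 1.72 (exact permutation p = 0.2, adjusted 0.4). The partner chains of type I had a ratio of *COL1A1* to *COL1A2* of 0.556, 0.805 and 0.529 in the UCP1 KI group and 0.678, 0.689 and 0.616 in the WT group, with UCP1 KI pigs on both sides of the WT pigs. The log2 difference of that ratio was -0.09 (exact permutation p = 0.8, adjusted 1). For *COL3A1* to *COL1A1* the ratio was 4.05, 1.67 and 5.24 against 3.04, 3.08 and 3.31, so that WT pigs were nearly alike while UCP1 KI pigs lay on both sides of them. The log2 differences of *COL3A1* to *COL1A1*, *COL3A1* to *COL1A2* and *COL5A1* to *COL5A2* were 0.07, -0.03 and -0.77, with exact permutation p values of 1, 1 and 0.2 and adjusted p values of 1, 1 and 0.4. With 3 pigs against 3 none of these tests could go under 0.1.

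**Figure D4:**
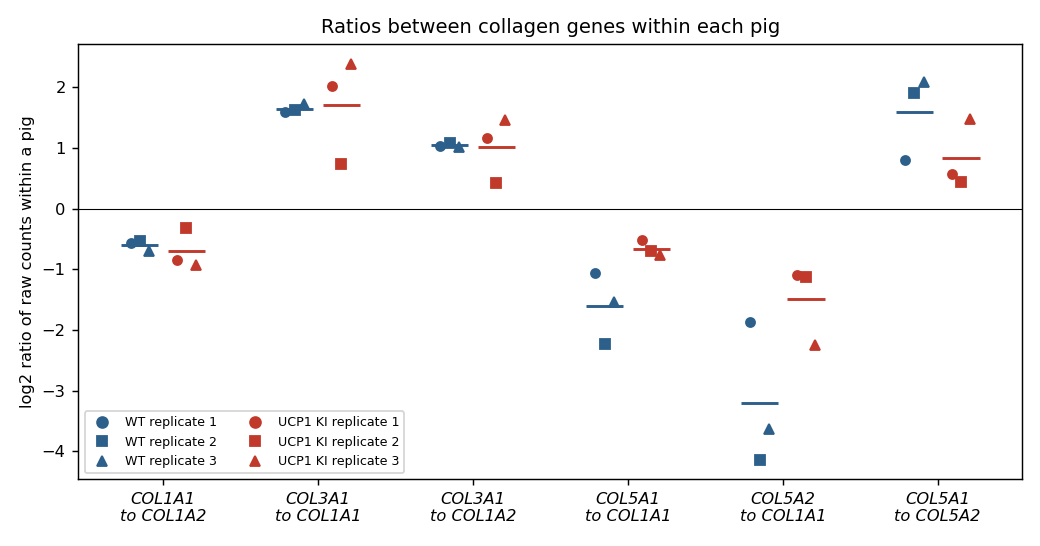
Log2 ratio of raw counts between pairs of fibrillar collagen genes within each pig (blue, WT; red, UCP1 KI; the symbol gives the replicate; lines, group means). The red points of *COL5A1* to *COL1A1* lie above all blue points, from ratios of 0.588 to 0.698 against 0.214 to 0.479, and the groups overlap in the other ratios.

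Of 93 other genes listed for the folding, processing, assembly, binding, breakdown and control of fibrillar collagens, 78 could be tested, and 9 were called lower and 3 higher, where 4.34% and 3.84% of all genes were. Most of the lower calls were in the list of fibril assembly and cross-linking, where 6 of 20 genes were called lower and 1 higher, with a median log2 fold change of -0.67. *SPARC*, a collagen-binding glycoprotein and the most abundant gene of that list, was at 319.6, 243 and 236 CPM in UCP1 KI replicates 1 to 3 and 544, 569.6 and 401 CPM in WT replicates 1 to 3. The groups did not overlap, its log2 fold change was -0.92, and it was called with each pig left out. *OGN*, a small leucine-rich proteoglycan that binds fibrils, was at 5.69, 5.47 and 8.45 CPM in UCP1 KI replicates 1 to 3 and 16.5, 26.2 and 13.6 CPM in WT replicates 1 to 3, again without overlap and called with each pig left out, with a log2 fold change of -1.52. The proteoglycans *FMOD*, *BGN* and *LUM*, which bind collagen fibrils, and *ABI3BP*, an extracellular matrix protein, had log2 fold changes of -1.46, -1.09, -0.57 and -0.78. The groups overlapped for *FMOD* and *BGN* and not for *LUM* and *ABI3BP*. *LOXL4*, a cross-linking oxidase, was called higher at 2.30, with 13.2, 17.1 and 1.51 CPM in UCP1 KI replicates 1 to 3 and 2.84, 1.83 and 1.77 CPM in WT replicates 1 to 3, so that UCP1 KI replicate 3 was below all WT pigs and the other UCP1 KI pigs were well above them.

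Among genes for the folding and secretion of procollagen, 0 of 17 were called lower and 1 higher, shares near the 4.34% and 3.84% of all genes, and the median log2 fold change was 0.24. *P4HB*, protein disulfide isomerase and a subunit of prolyl 4-hydroxylase, was at 60.4, 94.6 and 71.4 CPM in UCP1 KI replicates 1 to 3 and 34.3, 42.9 and 59.9 CPM in WT replicates 1 to 3. Its UCP1 KI pigs were all above its WT pigs, and the log2 fold change of 0.72 was called. *SERPINH1*, the procollagen chaperone HSP47 and the most abundant gene of that list, was at 312, 305 and 57.0 CPM in UCP1 KI replicates 1 to 3 and 122, 82.3 and 89.8 CPM in WT replicates 1 to 3. UCP1 KI replicates 1 and 2 were above all WT pigs and UCP1 KI replicate 3 below them, and the log2 fold change of 1.20 (standard error 0.58) was not called (edgeR, unadjusted p = 0.0737). It was called with library size only (1.39), with no filter (1.21), in DESeq2 (1.20) and without UCP1 KI replicate 3 (1.65), and not in the other alternatives. In UCP1 KI replicate 2, which had the lowest level of 8 members, *SERPINH1* and *P4HB* were thus not low.

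The lists that follow are short, and 0 or 1 call in a direction is near the shares of all genes, 4.34% lower and 3.84% higher. Among the genes that remove propeptides, 1 of 7 was called lower. This was *ADAMTS2*, the main procollagen N-proteinase, at -1.20, with WT replicate 3 below all UCP1 KI pigs. *PCOLCE*, the enhancer of C-propeptide removal and the most abundant of these genes, was at 45.8, 9.70 and 28.2 CPM in UCP1 KI replicates 1 to 3 and 64.7, 71.3 and 48.6 CPM in WT replicates 1 to 3, without overlap, and its log2 fold change of -1.14 had an unadjusted p of 0.0555 from edgeR and was not called. It was called lower in DESeq2 (-1.14), with no filter (-1.12), with the replicate block (-1.35) and without UCP1 KI replicate 1 (-1.69), and not in the other alternatives. Of the collagen receptors, 0 of 8 were called, with a median of -0.15, and *ITGB1*, the shared integrin subunit, was at -0.31. In the list of degradation and inhibitors, 1 of 7 was called, *FAP*, a fibroblast protease, at -0.91, whereas *TIMP3*, the most abundant, was at -0.05. *TIMP3* changed sign to 0.23 with library size only, to 0.11 when UCP1 KI replicate 3 was left out and to 0.33 when WT replicate 2 was. Among 19 genes of transcriptional control, *TGFB3*, a ligand of the TGF-beta pathway, was called lower at -1.28 with overlap between the groups. *CEBPB*, a transcription factor that also acts in fat cells, was called higher at 1.41, and *YBX1*, the most abundant of these genes, was at 0.04, with a sign that depended on the pig left out. Of the 12 called genes of these lists, *OGN*, *SPARC* and *CEBPB* were called with each pig left out, and the other 9 were lost without at least 3 different pigs each. With the replicate block *ADAMTS2*, *LUM*, *ABI3BP* and *FAP* were not called, and the other 8 were. The number called lower was 2 without WT replicate 2, 3 without UCP1 KI replicate 2 or WT replicate 1 and 5 without UCP1 KI replicate 3, beside the shares of all genes given above for these fits. The number called higher was 1 without UCP1 KI replicate 2, 1 without WT replicate 2 and 7 without UCP1 KI replicate 3, where 2.10%, 2.40% and 3.90% of all genes were. With library size only, 4 genes were called lower and 4 higher, where 1.46% and 6.93% of all genes were. All 12 genes called with TMM factors kept their sign. The medians of the receptors and of transcriptional control turned to 0.08 and 0.11, where the median of all genes was 0.24.

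**Figure D5:**
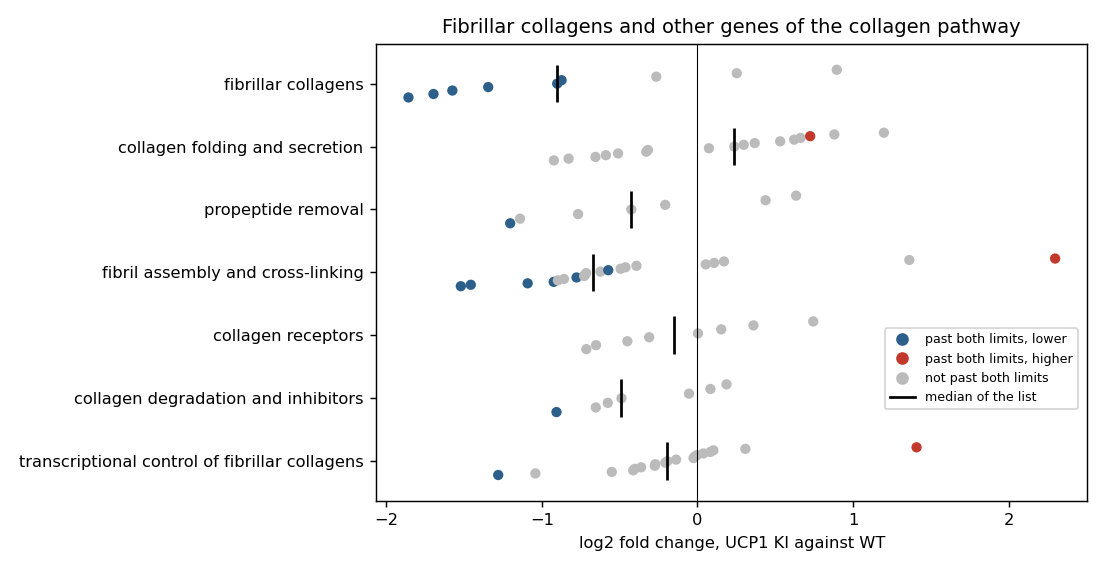
Log2 fold change, UCP1 KI against WT, of each tested gene in the fibrillar collagens and 6 lists of the collagen pathway (blue, called lower; red, called higher; grey, not called; black line, median of the list). The medians run from -0.90 in the fibrillar collagens to 0.24 in folding and secretion.

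Markers of the cells in the muscle were read beside the collagens. With TMM factors the summed level of 9 fibroblast markers, among them *DCN*, *LUM* and *PDGFRA*, lay between 560.1 and 677 CPM in UCP1 KI pigs. In WT pigs it lay between 721 and 827 CPM, so it was lower in every UCP1 KI pig, and *GSN* made up most of it. Scaled by library totals alone, the sum of UCP1 KI replicate 2 was above those of WT replicates 2 and 3, so the groups overlapped. Of 8 such markers tested, 1 was called lower, where 4.34% of all genes were. This was *LUM*, which is also in the assembly list, and the median log2 fold change was -0.37. *PDGFRA*, the receptor that defines these cells, was at 8.89, 12.5 and 9.56 CPM in UCP1 KI replicates 1 to 3 and 6.89, 16.3 and 9.54 CPM in WT replicates 1 to 3, with overlap. Taken as a ratio of raw counts, the 10 fibrillar collagens to the summed fibroblast markers were at 0.635, 0.245 and 0.629 in the UCP1 KI group and 0.922, 1.42 and 0.956 in the WT group. To *DCN* alone, the counts of *COL1A1*, *COL1A2* and *COL3A1* were at 3.47, 1.44 and 2.66 against 5.14, 7.39 and 5.70, and to *PDGFRA* alone at 33.8, 9.26 and 30.5 against 92.0, 60.9 and 62.7. In these 3 ratios, which were chosen after the values were seen, every UCP1 KI pig was below every WT pig. With each of the 8 fibroblast markers tested as the denominator in turn, 6 ratios had all UCP1 KI pigs below all WT pigs and 2 overlapped. The same separation was found with 73.4% of 12937 tested genes outside the family as the denominator, a share close to that of the 8 markers, and the numerator alone did not overlap between the groups. The overlapping marker ratios were those to *PDGFRB*, at 5.44, 2.44 and 8.69 against 6.54, 12.9 and 11.9, and to *PI16*, at 14.96, 4.35 and 27.4 against 15.02, 52.9 and 51.0. *PDGFRB*, a receptor that pericytes share with fibroblasts, had a log2 fold change of -0.72.

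With all 6 pigs and TMM factors, the other marker sums overlapped between UCP1 KI and WT pigs. They were 25.7 to 80.2 CPM against 20.6 to 95.7 CPM for 5 tendon cell markers, 4.60 to 5.96 CPM against 5.88 to 10.8 CPM for 7 chondrocyte markers, 60.6 to 208 CPM against 70.9 to 362 CPM for 6 adipocyte markers and 222 to 301 CPM against 254 to 585 CPM for 5 markers of smooth muscle and pericytes. For 6 endothelial markers they were 307 to 577 CPM against 288 to 510.3 CPM, for 6 leukocyte markers 13.4 to 48.4 CPM against 12.5 to 27.4 CPM, for 3 Schwann cell markers 12.8 to 33.0 CPM against 10.4 to 31.5 CPM and for 3 muscle fibre markers 44298 to 72296 CPM against 58938 to 70953 CPM. All 5 markers of smooth muscle and pericytes that were tested had a log2 fold change below 0, with 1 called and a median of -0.97, and so had all 5 adipocyte markers, with 0 called and a median of -1.13. The adipocyte values rested on WT replicate 2, where *FABP4*, a fatty acid carrier, reached 253 CPM, while the other WT pigs had 42.1 and 66.8 CPM. Without that pig the adipocyte median was -0.08, with 4 of 5 markers below 0, and the WT sums were 70.9 and 195 CPM. The median of smooth muscle and pericytes was then -0.70, with 5 of 5 below 0 and 1 called lower. Of all genes, 2.79% were called lower and 2.40% higher without WT replicate 2, and 4.34% and 3.84% with all 6 pigs. With all 6 pigs the medians of the endothelial and leukocyte markers were 0.11 and 0.79, with 1 called higher in each. Tendon markers had 1 of 2 called lower, *FMOD*, at a median of -0.61, and chondrocyte, Schwann cell and muscle fibre markers had 0 called, at medians of -0.55, -0.20 and -0.01, of which those of Schwann cells and muscle fibres turned to 0.12 and 0.23 with library size only. Under that scaling the median of all genes was itself 0.24, and 1.46% of all genes were called lower and 6.93% higher. There 1 muscle fibre marker and 2 leukocyte markers were called higher. The lower calls of fibroblasts and of smooth muscle and pericytes were lost, and the fibroblast median was -0.15. Without WT replicate 2 the medians of fibroblasts, tendon cells, chondrocytes, endothelial cells, leukocytes, Schwann cells and muscle fibres were -0.32, -0.63, -0.72, 0.21, 1.10, -0.12 and -0.16, and the fibroblast, tendon and leukocyte lists had 0 called. The chondrocyte sums no longer overlapped without that pig, with 9.84 and 10.8 CPM in the other WT pigs. *COMP* held 5.18 CPM of the sum in WT replicate 1. *SOX9*, the only one of those markers tested, still overlapped, with 5.54 CPM in WT replicate 1 and 5.91 CPM in UCP1 KI replicate 3. The part of these cell types in the collagen levels was not tested.

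The genes whose pattern over the 6 pigs was most like that of *COL1A1*, *COL1A2* and *COL3A1* were found by the root mean square difference between log2(CPM + 1) profiles, each centred on its own mean, among 11294 other genes with a symbol. The nearest were *HYCC2* (0.28 log2 units), *MSS51* (0.29), *CCDC80* (0.34), *APOA1* (0.34) and *MYOC* (0.36). *MSS51*, a gene of muscle fibres, was at 62.2, 22.6 and 66.8 CPM in UCP1 KI replicates 1 to 3 and 116, 133 and 125 CPM in WT replicates 1 to 3. *CCDC80*, a secreted matrix protein, was at 15.7, 3.76 and 16.9 CPM in UCP1 KI replicates 1 to 3 and 22.1, 53.8 and 27.0 CPM in WT replicates 1 to 3. In both, UCP1 KI replicate 2 was the lowest pig and WT replicate 2 the highest, as for the chains of type I. The choice of genes by likeness to that pattern favours this order.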

How the data were processed

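RNA-seq of longissimus dorsi muscle from 3 UCP1 KI and 3 WT pigs was analysed. Reads of mRNA libraries were filtered with Trimmomatic 0.36 and mapped with HISAT2 2.0 to Sscrofa11.1, per the methods of the study and the submitters' processing notes, which also name StringTie 1.3.3b for expression values. Whether StringTie made the deposited counts is not given in the sources used here. The authors deposited raw counts per Ensembl gene, without normalization, in 1 column per pig, with 0 unused columns. Whether the pigs were littermates or processed in batches is not given, and p values measure the spread between these pigs.

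The deposited counts were fitted with edgeR 4.0.16 in R 4.3.3 (filterByExpr, TMM factors, quasi-likelihood F test with condition as the only term, two-sided, Benjamini-Hochberg adjustment over all genes tested). Low genes were left out by filterByExpr, the limits were 0.05 for the unadjusted p and 0.5 for the absolute log2 fold change, and the standard error is the log2 fold change divided by the square root of F. Ratios used raw counts and exact permutation tests. Alternatives were DESeq2 1.42.0, median-of-ratios factors, library size only, no filter, a minimum of 10 counts in every pig, a block for the replicate number and each pig left out. Ratios to each fibroblast marker and marker lists without WT replicate 2 were added after the values were seen. The procedure was tested on simulated counts.

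Symbols came from a table that names 14864 of the identifiers, which hold all but 10.0% of the counts, and positions from RefSeq genes matched by symbol. The named genes were all 10 members, called genes and the most abundant gene of each pathway list, markers quoted with a list, and the 5 genes of nearest pattern. The members, lists and tests were chosen with earlier results of these data known. No sequences were used here.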

Additional observations from a re-analysis of the deposited data

How the results depend on the processing

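The number of fibrillar collagen genes called, 6, was 6 with median-of-ratios factors, no filter, at least 10 counts in every pig, DESeq2, no fold change limit and the replicate block. It was 3 with library size only, 0 at an adjusted p under 0.05 from edgeR, and 4 to 6 with each pig left out, all of them lower. Their median log2 fold change kept its sign and ranged from -1.12 to -0.76 with each pig left out. Other collagen pathway genes called lower numbered 4 in place of 9 with library size only and 2 to 13 with each pig left out. Those called higher numbered 4 in place of 3 and 1 to 7. The shares of all genes called in these fits are given above. With each pig left out, the log2 fold changes that changed sign ranged from -0.66 to 0.59 for *COL5A2*, -0.32 to 0.68 for *COL11A1* and -0.25 to 1.44 for *COL24A1*. The log2 difference ranged from -0.28 to 0.019 for *COL1A1* to *COL1A2*, -0.27 to 0.55 for *COL3A1* to *COL1A1* and -0.25 to 0.27 for *COL3A1* to *COL1A2*, and kept its sign for *COL5A1* to *COL1A1* (0.64 to 1.22), *COL5A2* to *COL1A1* (1.26 to 2.39, the highest without WT replicate 1) and *COL5A1* to *COL5A2* (-1.17 to -0.53). Pigs with the same replicate number are different animals. The deviations from their group means correlated across genes at 0.00, 0.09 and 0.28. Pairs with different numbers were at -0.20 to 0.13, so the pair of replicates 3 was the highest. Whether pigs of the same number shared a batch is not given and was not tested. With the replicate block *COL11A1* was at -0.030, and the 6 genes called were the same as without the block. The cause of these changes was not tested. Low counts limit *COL24A1* and *COL2A1*.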
